A study of Mus musculus with 2 samples.

Results

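The neurotrophins and their receptors are described here through 6 genes taken by symbol: the ligands Bdnf and Ntf3, the receptors Ntrk2, Ntrk3 and Ngfr, and Vgf, a gene induced by neurotrophins. They are 6 of the 55536 annotated genes in the gene tables and have 49 of the 141767 annotated transcripts. The RNA came from the hippocampus, labelled as a layer of it, of male 5xFAD/CAST mice aged 8 to 10 months, and 300 ng of total RNA entered each of 2 stranded, ribosomal-RNA-reduced libraries with ERCC spike-ins. The 5xFAD line is defined by transgenes with familial Alzheimer disease mutations, human APP among them, under a Thy1 promoter, which is active mainly in neurons, and CAST is a wild-derived strain. The labels name the cross and do not say whether the animals sampled carried the transgenes or which generation they were. The labels make them biological replicates 1 and 2 of a single group but give them 1 donor identifier, so the SDs and p-values below reflect only how these samples differ, perhaps for technical reasons. No second genotype was analysed here, so no value below is an effect of genotype.

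Neurotrophins are secreted growth factors that are made as longer precursors and cut to a mature form. Mature BDNF binds TrkB, the product of Ntrk2, and NT-3, the product of Ntf3, binds TrkC, the product of Ntrk3. Both receptors are tyrosine kinases, and both genes also make truncated forms that keep the ligand-binding part but lack the kinase. The p75 receptor, made from Ngfr, binds all neurotrophins and their precursors. In the hippocampus BDNF is known for its part in synaptic plasticity.

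Expected counts, the authors' estimates of reads per gene, summed to 26128897 in replicate 1 and 28689423 in replicate 2, so that 1 count was worth 0.0383 and 0.0349 CPM. Of the hippocampal markers checked, 5 of 5 of dentate granule cells and 5 of 5 of CA2 were detected, meaning at least 1 TPM (a level scaled for transcript length and library depth) in both libraries. Summed over the list, the dentate markers reached 95.0 TPM (replicate 1) and 113 TPM (replicate 2). The libraries differed in genes of other regions. All 7 choroid plexus markers (summed level 1196 and 183 TPM in replicates 1 and 2) and all 8 striatal markers (211 and 78.8 TPM) were higher in replicate 1. In bulk tissue, more cells of a type and more RNA per cell cannot be told apart.

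All 6 genes were detected, over a range from 1.82 ± 0.891 TPM (SD, n = 2) for Ngfr to 161 ± 7.75 TPM for Ntrk2. From the highest to the lowest, the order was Ntrk2, Ntrk3, Vgf, Bdnf, Ntf3 and Ngfr. The same order stood in each library in all 3 sets of values that the authors deposited (alignment-based TPM, posterior mean TPM and alignment-free TPM). No pair of neighbours in this order overlapped over the 2 libraries in the alignment-based values. The closest neighbours were Ntrk3, at 80.5 and 86.3 TPM, and Vgf, at 71.6 and 72.0 TPM. Among 13294 detected protein-coding genes, Ntrk2 lay at percentile 96.8, Ntrk3 at 91.7 and Vgf at 90.1, whereas Bdnf lay at 40.2, Ntf3 at 16.4 and Ngfr at 4.76.

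**Figure D1:**
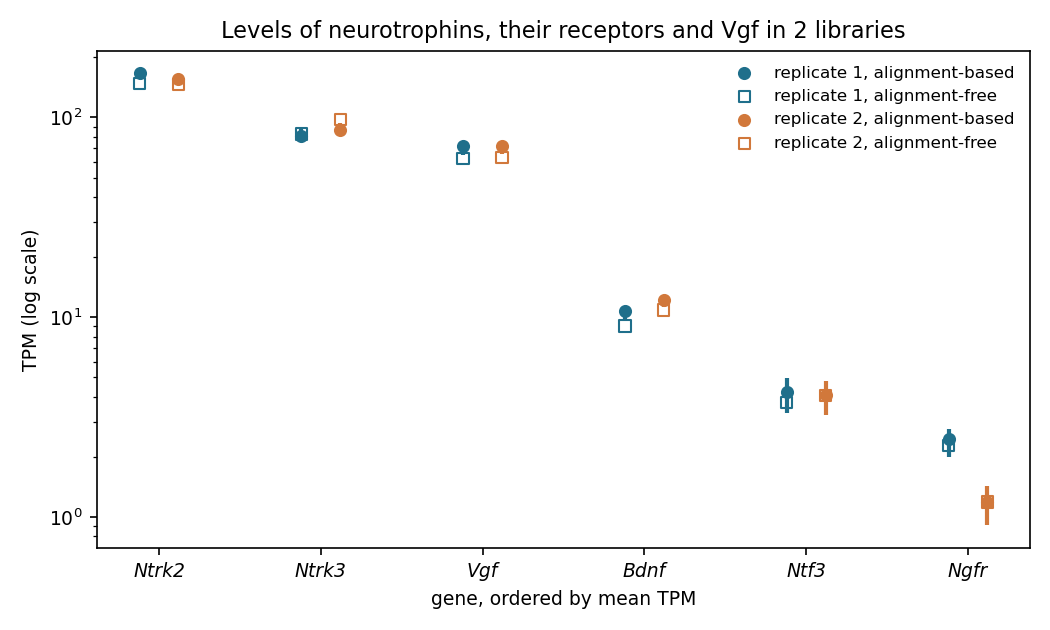
TPM on a log axis for each gene, with 1 colour per library. Filled circles are alignment-based TPM, vertical lines the authors' credibility interval for it, and open squares the alignment-free TPM. The 3 highest genes sit above 60 TPM in both libraries and tables, and Ngfr is the one gene whose 2 libraries stand visibly apart.

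With all transcripts of a gene counted, each kinase receptor gene exceeded that of its preferred ligand in both libraries. The TPM of Ntrk2 was 15.5 times that of Bdnf in replicate 1 and 12.7 times in replicate 2. The TPM of Ntrk3 was 19.1 and 21.2 times that of Ntf3. Between the ligands, Bdnf was 2.55 and 3.01 times as high as Ntf3, and between the receptors Ntrk2 was 2.06 and 1.80 times as high as Ntrk3. The receptor totals include truncated forms without the kinase, fragments and noncoding transcripts. Full-length Ntrk2 transcripts alone stood at 51.1 and 50.8 TPM, against 10.8 and 12.3 TPM of Bdnf. Full-length Ntrk3 transcripts stood at 33.9 and 33.3 TPM, against 4.21 and 4.07 TPM of Ntf3. The full-length RNA thus also exceeded the ligand RNA, by less than the whole-gene ratios. These ratios are of RNA and not of protein.

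The libraries were then compared with each other, since the labels give no other contrast. An exact conditional binomial test on the counts, adjusted over all 16977 genes tested with the Benjamini-Hochberg method, sets each difference against counting error only and says nothing of a condition. It called 3 of the 6 genes, against 18.8% of all genes tested. The test calls smaller differences at higher counts, so the share called depends on the counts. In replicate 2, 1 of the 6 was higher (9.93% of all genes), and in replicate 1, 2 were higher (8.88% of all genes). The median log2 ratio of replicate 2 over replicate 1 was -0.07 over the 6 genes and 0.003 over all genes. The median size of the log2 ratio was 0.12 over all genes, and those of Ntrk2 and Ntrk3 were smaller than that. Scaling by the spike-ins in place of the trimmed mean of M-values (TMM) raised the median log2 ratio of all genes to 0.27, so directions below are relative to the bulk of genes. On that scale 59.1% of all genes tested were called, 56.5% higher in replicate 2 and 2.6% higher in replicate 1, which is the background for the spike-in counts below.

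Bdnf (ENSMUSG00000048482.14, chr2:109674700-109727007, plus strand, mm10) stood at 10.8 TPM from 762 counts in replicate 1 and at 12.3 TPM from 928 counts in replicate 2. The mean was 11.5 ± 1.07 TPM (SD, n = 2). The authors' credibility intervals for TPM, 9.78 to 11.3 and 11.2 to 12.8, overlapped slightly. The log2 ratio of 0.16 did not pass the exact binomial test across all genes (adjusted p = 0.0994), and the value in replicate 2 was the higher in every table. With the spike-ins as the scale, the log2 ratio was 0.42 and passed (adjusted p = 9.36e-09, exact binomial test), at a point where the median of all genes stood at 0.27.

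Bdnf is transcribed from several promoters, and each gives a different first exon spliced to 1 shared exon that holds the coding sequence of the precursor. The 11 annotated transcripts fall into 8 groups of overlapping first exons, numbered 1 to 8 here from 5′ to 3′. Groups 1 to 6 correspond to exons I to VI of the usual numbering. All 11 share a last exon of 3626 bases, and in the transcripts above 0 in the alignment-based table the first exons measured 213 to 640 bases, so only a small part of the reads of this gene tells its promoters apart. Most of them encode a precursor of 249 residues, Bdnf-201 one of 257 and Bdnf-202, of group 8, one of 289.

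The exon VI transcript, Bdnf-205, led in both libraries and in both tables. Replicate 1 had 4.44 TPM of it and replicate 2 had 6.24 TPM, a share of 46.1 ± 6.84% of the TPM of the gene (SD, n = 2). The alignment-free table gave 49.6 ± 6.81%. The exon IV transcript, Bdnf-209, followed at 3.12 and 2.54 TPM, a share of 24.9 ± 5.84%. It stood at 2.01 and 2.79 TPM in the alignment-free table, a share of 23.9 ± 2.42%. Which library had more of it thus turned between the tables. In replicate 1 the credibility intervals of these 2 transcripts, 2.72 to 4.90 and 1.79 to 3.71 TPM, overlapped. In replicate 2 they did not, at 4.25 to 6.61 and 1.36 to 3.18 TPM. The leading place of exon VI over exon IV is therefore resolved by the intervals in 1 of the 2 libraries, although the point estimates had the same order in both.

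Exons I and II gave less. Bdnf-201, with exon I, stood at 0.930 and 1.39 TPM (10.0 ± 1.91%). The 3 transcripts with exon II together stood at 1.47 and 1.20 TPM (11.7 ± 2.73%). Group 7, at 0.800 and 0.880 TPM in the alignment-based table, was listed at 0 in replicate 1 and at 0.377 TPM in replicate 2 in the alignment-free one. Exon III and group 8 were listed at 0 in both libraries in the alignment-based table, while the alignment-free table gave 0.331 and 0.800 TPM in replicate 1 and 0 for both in replicate 2. Exon V was listed at 0 in every library and table. Its posterior mean was 0.17 TPM in each library. The upper bounds of its credibility intervals were 0.491 and 0.511 TPM, so levels up to these are not excluded. The shares of the small groups moved between tables by more than between libraries for group 7, and no order among them is given.

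**Figure D2:**
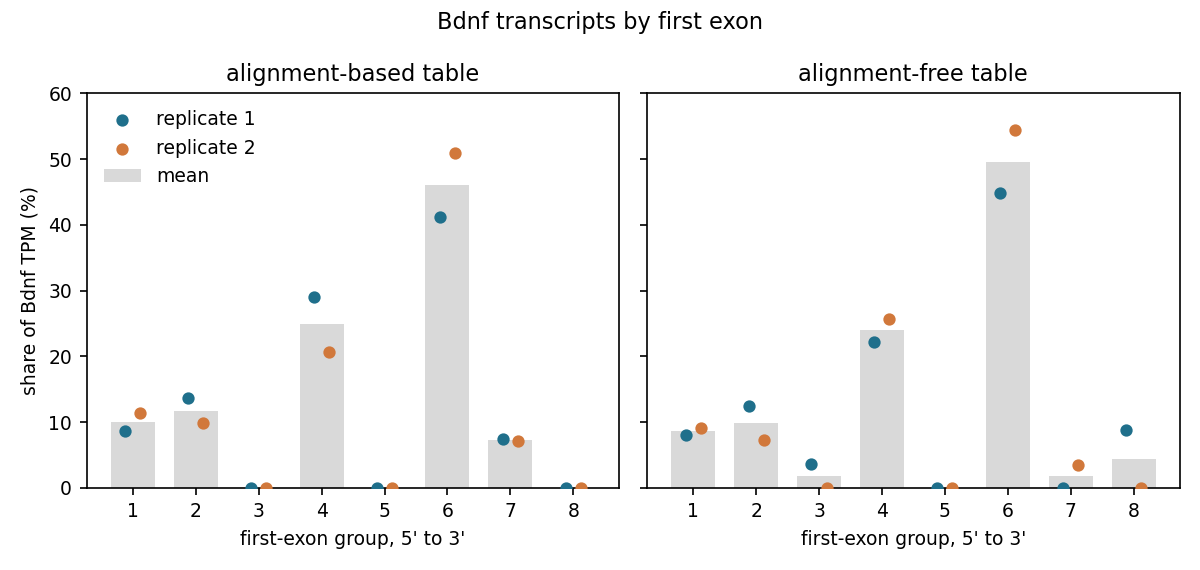
Share of the Bdnf TPM, in percent, held by each group of first exons in the alignment-based table (left) and the alignment-free table (right). Grey bars are the mean of both libraries and dots the libraries; group 6 leads and group 4 follows in each panel, and group 5 is at 0.

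RefSeq promoter windows of 250 bases upstream of a start were at hand for 6 of the 8 groups, not for groups 2 and 6, and 1 more window began at no annotated GENCODE transcript used here. Promoter IV is known for its response to neuronal activity through cAMP response elements, so the short core of that element, TGACG or its reverse CGTCA, was searched on both strands. It occurred in 1 of the 7 windows, that of group 4, with the first base of the match 35 bases before the start, and in 17.8% of 32851 RefSeq promoter windows of the same length. The full palindrome TGACGTCA, which contains the core, was in none of the 7 windows and in 1.55% of all windows. A match of letters is a description and shows no binding. The window before the exon IV start (GRCm38.p6, chr2:109692186-109692435, plus strand) is shown because it belongs to the second of the leading transcripts, with the core in capitals.
Bdnf exon IV promoter: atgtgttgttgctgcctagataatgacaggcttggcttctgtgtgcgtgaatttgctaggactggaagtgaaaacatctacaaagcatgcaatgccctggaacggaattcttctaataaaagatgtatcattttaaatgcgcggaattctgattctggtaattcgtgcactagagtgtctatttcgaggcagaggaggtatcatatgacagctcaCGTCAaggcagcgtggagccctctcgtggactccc

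Ntf3 (ENSMUSG00000049107.13, chr6:126101412-126166910, minus strand), which encodes NT-3, stood at 4.21 TPM from 95 counts in replicate 1 and at 4.07 TPM from 98 counts in replicate 2. The mean was 4.14 ± 0.0990 TPM (SD, n = 2), and the credibility intervals, 3.32 to 4.96 and 3.24 to 4.80 TPM, nearly coincided. The log2 ratio was -0.08 and did not pass the exact binomial test across all genes (adjusted p = 0.867). Its sign turned with the spike-in scale (0.18) and in the alignment-free counts (0.04), so no direction is given. The NT-3 precursor of Ntf3-201 and the BDNF precursor of Bdnf-205, of 258 and 249 residues, were identical at 44.3% of 235 aligned residues when their coding sequences were translated. At this depth the transcripts of Ntf3 were not resolved. The alignment-based table placed all TPM on Ntf3-203 in both libraries. The alignment-free table gave Ntf3-203 1.52 TPM in replicate 1 and 0 in replicate 2, and gave Ntf3-202 1.47 and 3.23 TPM. These transcripts both encode 271 residues.

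Ntrk2 (ENSMUSG00000055254.15, chr13:58806569-59133970, plus strand) was the highest of the 6 genes, at 166 TPM from 17217 counts in replicate 1 and 155 TPM from 17591 counts in replicate 2. The log2 ratio of -0.09 passed the exact binomial test (adjusted p = 4.70e-08), lower in replicate 2 under TMM, DESeq2 and library-total scaling but higher with the spike-ins (0.17). The authors' credibility intervals, 157 to 165 and 147 to 154 TPM, lay just below these point values and did not overlap. The difference between the libraries is 1.07-fold, and 41.2% of all genes tested had a log2 ratio of smaller size, whatever its sign. Astrocytes are known to make mainly the truncated receptor. The 7 astrocyte markers were all detected, with summed levels of 2428 and 2431 TPM. Of these, 3 of the 7 were higher in replicate 1, none in replicate 2, while with the spike-ins 7 were higher in replicate 2. Of all genes tested, 8.88% were higher in replicate 1 and, with the spike-ins, 56.5% in replicate 2. The part of astrocytes in the level of Ntrk2 was not tested.

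The forms of TrkB share 1393 coding bases, or 464 whole codons, and part at the same splice junction. The GENCODE M21 sequences at this point are shown for the full-length receptor and the most abundant truncated forms, because the forms can be told apart from this point on. Lower-case letters are the last 30 shared bases, and capitals are the bases of each form's own coding sequence, which for the truncated forms run to the stop codon. The capitals lie at chr13:58985802-58985861 in Ntrk2-201, at chr13:58932023-58932060 in Ntrk2-202 and at chr13:58878339-58878424 in Ntrk2-205 (mm10, plus strand).
Ntrk2-201, full-length: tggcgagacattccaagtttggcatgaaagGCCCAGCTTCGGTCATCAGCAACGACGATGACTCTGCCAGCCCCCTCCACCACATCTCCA
Ntrk2-202, truncated: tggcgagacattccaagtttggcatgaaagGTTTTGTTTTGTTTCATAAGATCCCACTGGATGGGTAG
Ntrk2-205, truncated: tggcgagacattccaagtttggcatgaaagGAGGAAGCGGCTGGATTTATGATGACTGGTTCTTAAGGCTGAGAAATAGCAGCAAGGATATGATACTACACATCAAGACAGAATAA

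Truncated TrkB RNA exceeded full-length RNA in both libraries and both tables. Full-length transcripts (Ntrk2-201 and Ntrk2-207, 821 residues) summed to 51.1 TPM in replicate 1 and 50.8 TPM in replicate 2. Truncated transcripts summed to 113 and 102 TPM. The full-length share of both together was 31.2% and 33.3%, or 32.3 ± 1.48% (SD, n = 2). The alignment-free table gave 34.7 ± 1.95%.

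The form of 476 residues, which ends with the short tail shown for Ntrk2-202, made up most of the truncated RNA. Its 2 transcripts, Ntrk2-202 (66.7 and 61.8 TPM) and Ntrk2-204 (23.5 and 18.3 TPM), summed to 90.2 and 80.1 TPM, or 53.8 ± 1.84% of full-length and truncated RNA together. Ntrk2-205, of 492 residues, stood at 18.5 and 17.4 TPM (11.3 ± 0.0572%), but at 9.82 and 9.73 TPM in the alignment-free table. Ntrk2-208, of 466 residues, stood at 3.83 and 2.98 TPM. Ntrk2-209, of 489 residues, was listed at 0 in replicate 1 and at 1.23 TPM in replicate 2, within a credibility interval of 0.00588 to 2.68 TPM. The remaining 3 transcripts, which are incomplete or noncoding, held 1.66 ± 0.181% of the gene, and 5.14 ± 0.968% in the alignment-free table. Of these, Ntrk2-203 stood at 1.55 and 1.58 TPM and Ntrk2-210 at 1.00 and 1.20 TPM. Within the full-length form, Ntrk2-201 held 34.6 and 37.1 TPM and Ntrk2-207 16.5 and 13.7 TPM.

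Ntrk3 (ENSMUSG00000059146.12, chr7:78175959-78738012, minus strand) stood at 80.5 TPM from 9346 counts in replicate 1 and at 86.3 TPM from 10740 counts in replicate 2. The log2 ratio of 0.08 passed the exact binomial test (adjusted p = 0.00218) and was higher in replicate 2 under every scaling tried. It was, like that of Ntrk2, smaller than the typical size over all genes. The credibility intervals, 77.1 to 88.1 and 80.4 to 93.4 TPM, overlapped. The authors' alignment-free table gave 82.5 and 97.5 TPM.

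The forms of TrkC share 1585 coding bases, or 528 whole codons, before they part. The capitals below are 60 bases of each form's own coding sequence, at chr7:78260355-78260414 in Ntrk3-201 and at chr7:78304367-78304426 in Ntrk3-202 (mm10, minus strand), after 30 shared bases in lower case.
Ntrk3-201, full-length: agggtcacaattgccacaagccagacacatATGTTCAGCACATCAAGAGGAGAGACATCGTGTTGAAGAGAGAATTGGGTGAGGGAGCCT
Ntrk3-202, truncated: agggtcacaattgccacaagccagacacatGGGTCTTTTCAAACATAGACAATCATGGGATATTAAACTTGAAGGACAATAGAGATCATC

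Full-length and truncated TrkC RNA stood near parity, unlike the forms of TrkB. Full-length transcripts summed to 33.9 TPM in replicate 1 and 33.3 TPM in replicate 2, and the truncated Ntrk3-202 (612 residues) stood at 29.1 and 30.7 TPM. The full-length share was 53.8% and 52.0%, or 52.9 ± 1.31% (SD, n = 2), and 53.6 ± 0.855% in the alignment-free table. In each library and table the share of Ntrk3 lay above that of Ntrk2. The difference was 22.6 and 18.7 percentage points in replicates 1 and 2, and an exact two-sided sign-flip permutation test over these 2 differences gave p = 0.5, the smallest it can give. The full-length transcript Ntrk3-201 is 19703 bases long against 3977 for Ntrk3-202, so the same shares in expected counts, which are not divided by length, were 77.6% for Ntrk3 and 41.1% for Ntrk2.

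The full-length TrkC RNA came in 3 coding variants. Ntrk3-201 (825 residues) stood at 17.6 and 19.3 TPM. Ntrk3-205 (839 residues) carries 42 further bases, or 14 codons, from codon 712, within the kinase domain, at chr7:78204103-78204144. Ntrk3-206 (864 residues) carries 117 further bases, or 39 codons, at the same place, of which the last 42 are those of Ntrk3-205. Such inserts in the kinase are a known feature of TrkC. They are shown in capitals between 15 shared bases on each side.
Ntrk3-205 insert: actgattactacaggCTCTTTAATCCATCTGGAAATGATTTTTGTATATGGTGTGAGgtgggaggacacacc
Ntrk3-206 insert: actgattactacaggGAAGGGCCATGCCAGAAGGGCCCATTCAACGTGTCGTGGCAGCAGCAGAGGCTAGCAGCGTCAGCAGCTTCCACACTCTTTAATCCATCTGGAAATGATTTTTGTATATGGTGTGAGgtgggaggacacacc

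Ntrk3-205 stood at 13.2 and 12.1 TPM in the alignment-based table, and Ntrk3-206 at 3.13 and 1.79 TPM. The alignment-free table divided them otherwise, at 6.58 and 6.93 TPM for Ntrk3-205 and 7.06 and 5.41 TPM for Ntrk3-206. Their order in replicate 1 turned between the tables, and the 2 inserts share their last 42 bases. Ntrk3-201 led the variants in both libraries and tables. The other 16 transcripts, fragments and noncoding RNAs, held 23.9 ± 2.93% of the TPM of the gene in the alignment-based table and 36.6 ± 4.70% in the alignment-free table, more than the full-length forms there (34.0 ± 3.06%). In the alignment-based table the highest of them were the 435-base Ntrk3-220, at 9.05 and 8.09 TPM from 55.0 and 52.5 expected counts, and Ntrk3-204, at 4.07 and 5.37 TPM, and Ntrk3-213 (2.04 and 2.40 TPM) and Ntrk3-211 (1.12 and 2.01 TPM) also reached 1 TPM in both libraries. The alignment-free table gave Ntrk3-220 12.1 and 11.1 TPM, and listed Ntrk3-214, named after its values were seen, near 0 in replicate 1 and at 17.8 TPM in replicate 2. Because TPM divides by length, a short transcript such as Ntrk3-220 holds a large share of TPM on few reads. The full-length receptors TrkB and TrkC, translated from Ntrk2-201 and Ntrk3-201, were identical at 58.5% of 796 aligned residues.

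**Figure D3:**
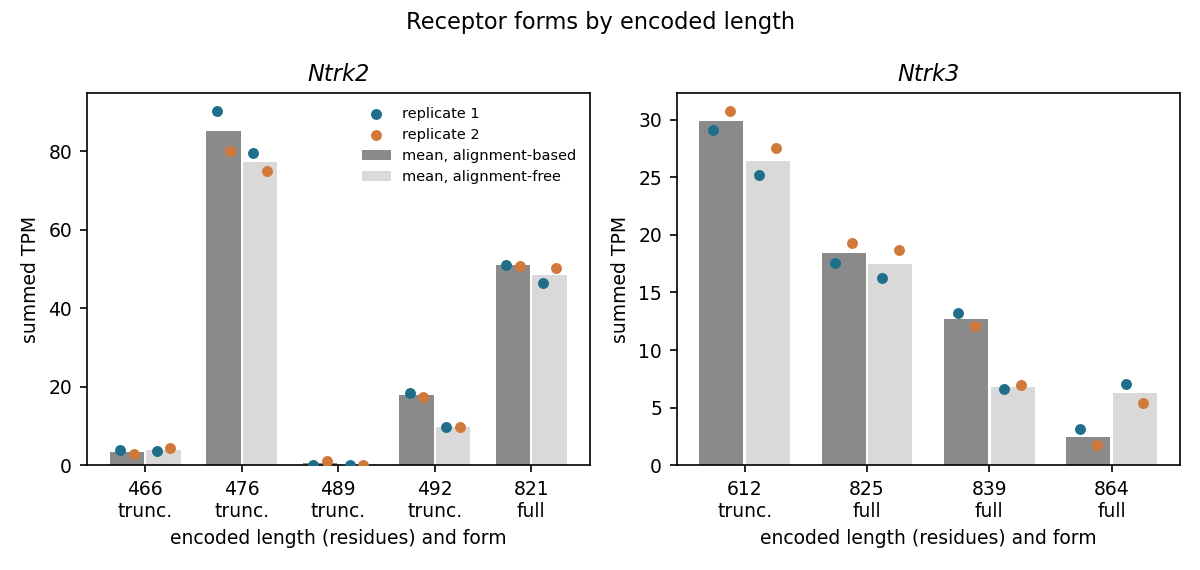
Summed TPM of the Ntrk2 (left) and Ntrk3 (right) transcripts that encode each form, by length in residues, with full-length (full) and truncated (trunc.) forms named. Bars are means of the alignment-based (dark) and alignment-free (light) tables and dots the libraries; the 476-residue truncated form is the highest for Ntrk2, and the 612-residue truncated form the highest single form for Ntrk3.

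Ngfr (ENSMUSG00000000120.6, chr11:95568818-95587735, minus strand), which encodes p75, was the lowest of the 6 genes and the one that differed most between the libraries. It stood at 2.45 TPM from 149 counts in replicate 1 and at 1.19 TPM from 77 counts in replicate 2, and has 1 annotated transcript, of 427 residues. The credibility intervals, 2.00 to 2.76 and 0.911 to 1.42 TPM, did not overlap. Ngfr was 2.10-fold higher in replicate 1 (log2 ratio -1.07, adjusted p = 1.24e-06, exact binomial test). Of all genes tested, 98.3% had a log2 ratio of smaller size, whatever its sign. The direction stood under every alternative run, and the call under each that gave a test, with log2 ratios of -0.81 to -1.08. The mean of 1.82 ± 0.891 TPM is therefore a mean of unlike libraries.

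Some markers of other cells and regions were also higher in replicate 1. With 2 libraries no likeness of pattern to Ngfr was computed. In the basal forebrain p75 is known as a marker of cholinergic neurons. General markers of cholinergic neurons, which do not tell the region these came from, had few counts in replicate 2. Chat, which makes acetylcholine, had 48 counts in replicate 1 and 0 in replicate 2, at least 17.4-fold higher in replicate 1 against a floor of 3 counts per library. Slc5a7, the choline transporter, had 98 and 10 counts, Slc18a3, the vesicular transporter, 23 and 2, and Lhx8 22 and 0. Of these 4 markers none reached 1 TPM in both libraries, and their summed level was 3.44 TPM in replicate 1 and 0.140 TPM in replicate 2. Both of those with enough counts to be tested were higher in replicate 1. The choroid plexus and striatal markers moved the same way, with median log2 ratios of -2.76 and -1.76. Markers of the thalamus and cortex had median log2 ratios of -0.12 and -0.14, which turned to 0.15 and 0.12 with the spike-ins. Of 5 thalamic markers 1 was higher in each library, Slc17a6 in replicate 1 (log2 ratio -0.92) and Prkcd in replicate 2 (0.24). Of 5 cortical markers 2 were higher in replicate 1 and 0 in replicate 2. Of all genes tested, 8.88% were higher in replicate 1. Vascular and meningeal cells can also make p75. Of the meningeal markers, 3 of 5 were higher in replicate 1 (summed 53.1 and 43.1 TPM; with the spike-ins 1 was also higher in replicate 2), as were 3 of 5 mural markers (83.3 and 73.6 TPM; with the spike-ins 1 was higher in each library). The part of these cells and regions in the level of Ngfr was not tested.

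**Figure D4:**
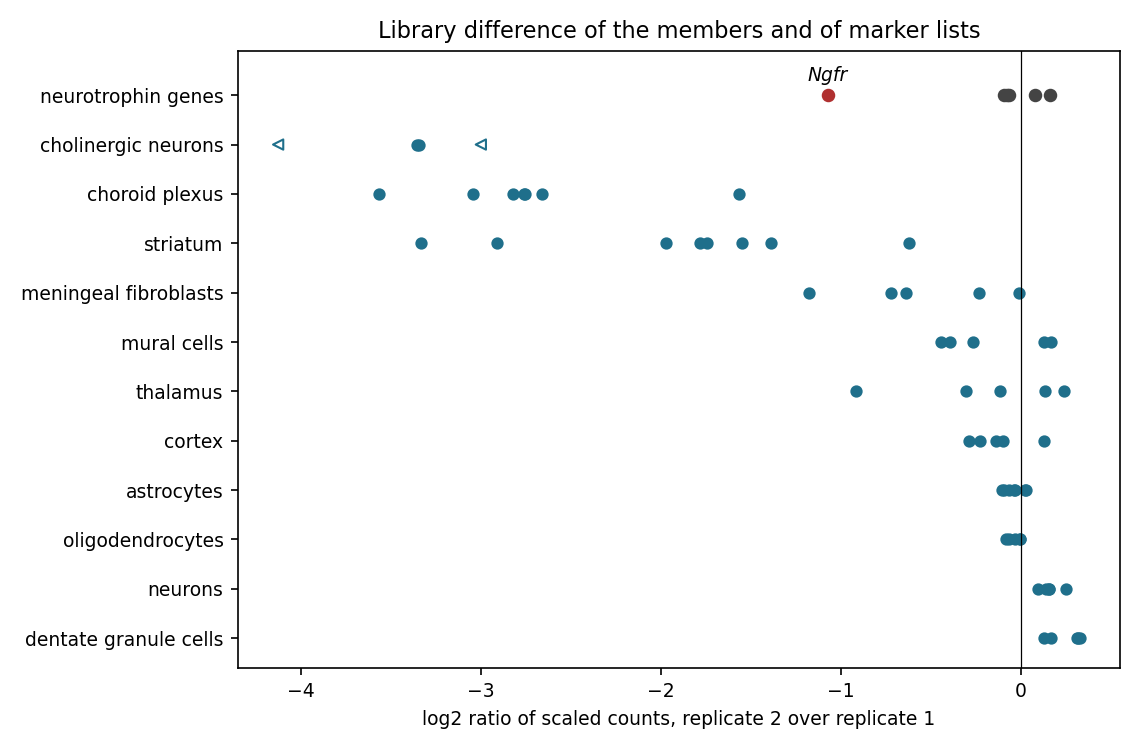
Log2 ratio of TMM-scaled counts, replicate 2 over replicate 1, for the 6 genes (top row, Ngfr in red) and for the genes of 11 marker lists with at least 20 counts over both libraries. Open triangles are bounds for genes with 0 counts in replicate 2; Ngfr lies at -1.07, on the side of the cholinergic, choroid plexus and striatal markers, and the other 5 genes lie near 0.

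Vgf (ENSMUSG00000037428.14, chr5:137026392-137033351, plus strand), whose product is a secreted precursor of neuropeptides and is known to be induced by BDNF, stood at 71.6 TPM from 2660 counts in replicate 1 and at 72.0 TPM from 2775 counts in replicate 2. The mean was 71.8 ± 0.290 TPM (SD, n = 2), 6.66 and 5.88 times that of Bdnf. The log2 ratio of -0.06 did not pass the exact binomial test (adjusted p = 0.281), and it turned with the spike-ins (0.20) and as a ratio of TPM (0.01). The tables named different leading transcripts. Vgf-201 held 52.0 and 51.1 TPM in the alignment-based table, the incomplete Vgf-203 15.4 and 17.4 TPM (22.8 ± 1.94% of the gene), and Vgf-204 4.27 and 3.24 TPM. In the alignment-free table Vgf-204 led, at 22.6 and 23.7 TPM, with Vgf-201 at 20.7 and 19.4 TPM, Vgf-203 at 14.2 and 12.3 TPM and Vgf-202 at 4.90 and 7.59 TPM. Vgf-201 and Vgf-204 both have a last exon of 2386 bases and encode the same 617 residues, so the choice between them leaves the encoded protein as it is.

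Further genes of the pathway were taken by role in 7 lists, 87 genes in all, of which 86 were found under the listed symbol and 83 had enough counts to be tested. Between the libraries 29 of the 83 were called (34.9%, against 18.8% of all genes), 18 higher in replicate 2 and 11 higher in replicate 1. The share of all genes called was 22.3% at a minimum mean of 100 counts. Because the test calls smaller differences at higher counts and the shares were not matched for counts, they do not show that the pathway differed more. With the spike-ins, 64 were higher in replicate 2 and 2 in replicate 1, against 56.5% and 2.6% of all genes. With TMM, 9.93% of all genes were higher in replicate 2 and 8.88% in replicate 1. Both pairs of shares are the background for the lists below. The median log2 ratio was 0.05 over the 83. These counts compare 2 libraries that differ in regional markers, and the lists were chosen with earlier results of these data known.

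Ntf5, which encodes the ligand NT-4, had 2 counts in each library, or 0.0600 TPM. Of 6 further receptors tested, 3 were higher in replicate 2 and 2 in replicate 1, and with the spike-ins 4 and 1. Sort1, which encodes sortilin, the partner of p75 in binding precursors, stood at 130 and 147 TPM, below Ntrk2 in each library. Sort1 was higher in replicate 2 (log2 ratio 0.15, adjusted p = 5.02e-19, exact binomial test). Lingo1 (107 and 119 TPM) and Rtn4r (33.6 and 44.1 TPM), the Nogo receptor that works with p75, were also higher in replicate 2.

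Genes of precursor processing and secretion were abundant. All 15 tested of 16 were detected, 4 higher in replicate 2 and 2 in replicate 1, and with the spike-ins 12 and 0. Cpe, which trims peptide precursors and has a part in sorting BDNF, stood at 1133 and 1216 TPM, and the granule proteins Scg3 and Chgb at 126 and 130 TPM and at 110 and 134 TPM. Cpe and Chgb were higher in replicate 2.

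Adaptors of the receptors were all detected where tested. Of 21 Trk adaptors and signalling genes, 2 were called in each direction, and 18 and 0 with the spike-ins. The 2 and 2 calls lay near the shares of all genes, 9.93% higher in replicate 2 and 8.88% in replicate 1. The highest were Kidins220, a scaffold and Trk substrate (146 and 153 TPM), Nedd4l, a ubiquitin ligase (82.9 and 98.3 TPM, higher in replicate 2), and Grb2, an adaptor towards Ras (93.7 and 85.5 TPM). Of 8 tested p75 adaptors, 1 was higher in replicate 2 and 2 in replicate 1, with DESeq2 size factors 3 and 1, and with the spike-ins 6 and 1. Maged1 led at 215 and 237 TPM and was higher in replicate 2, Arhgdia stood at 133 and 128 TPM (log2 ratio -0.08, adjusted p = 0.0478 by the exact binomial test, but 0.112 with DESeq2 size factors, its direction turning with the spike-ins), and Bex3 at 123 and 136 TPM.

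Regulators of Bdnf transcription showed 2 calls in each direction among 17 tested, and 14 and 0 with the spike-ins. The 2 and 2 calls lay near the shares of all genes, 9.93% higher in replicate 2 and 8.88% in replicate 1. Mef2d stood at 78.3 and 84.5 TPM, Arnt2 at 79.0 and 66.5 TPM and Crtc1, a coactivator of CREB, at 65.8 and 69.7 TPM. Arnt2 was lower and Crtc1 higher in replicate 2, and the direction of Arnt2 turned with the spike-ins. The call of Crtc1 (adjusted p = 0.0356, exact binomial test) was lost with library totals (adjusted p = 0.0950). Of 16 genes that neuronal activity is known to induce, as it does Bdnf, 6 were higher in replicate 2 and 1 was higher in replicate 1, with a median log2 ratio of 0.16. With the spike-ins 10 were higher in replicate 2 and 0 in replicate 1. Homer1 stood at 47.7 and 52.0 TPM, and Egr3 at 24.9 and 29.9 TPM (higher in replicate 2). Replicate 1 held 19.1 TPM and replicate 2 30.5 TPM of Arc (log2 ratio 0.65, adjusted p = 1.11e-28, exact binomial test). Pan-neuronal markers moved the same way, 5 of 5 higher in replicate 2 (summed 1528 and 1724 TPM, 4 of 5 with library totals). So did 4 of 5 dentate granule markers, with a median log2 ratio of 0.31. Inhibitory neuron markers did not move as 1, with 1 of 5 higher in replicate 2, 2 higher in replicate 1 and a median log2 ratio of 0.03. The part of these cells in the values of the activity-induced genes was not tested.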

How the data were processed

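Total RNA-seq of 2 libraries of 1 group was analysed. The authors made the deposited expected counts, TPM, TPM credibility bounds (a score here, since the file does not state their level) and percent of gene TPM per transcript from alignments, per the file headers, and a second transcript table without alignment, per the deposited notes, on mm10 with GENCODE M21. No source used here names the quantifiers. Genes of at least 20 mean expected counts, rounded, were compared by an exact conditional binomial test (two-sided, Benjamini-Hochberg over 16977 genes, adjusted p threshold 0.05) with TMM totals from edgeR 4.0.16 in R 4.3.3. Log2 ratios used a prior count of 0.5. A count of 0 allows 3 counts, or 0.115 and 0.105 CPM, counting error alone being covered. On simulated counts of 16995 genes, 99.5% of 200 genes set 2-fold apart were called with the true sign, and 0.0357% of unchanged ones were called. The simulated counts varied by counting error alone, as the test assumes. The 200 genes were drawn above a higher count minimum than the test uses. These rates check the working of the test and are not its error rates on real libraries. Full-length forms end at the stop codon of the longest coding sequence, and truncated forms share its start codon. Promoters are RefSeq's (GRCm38.p6). Python 3.11.15, scipy 1.17.1, Biopython 1.88 and matplotlib 3.10.9 served for the rest. The text names all 6 genes, the transcripts of Bdnf, Ntrk2 and Ntrk3 at 1 TPM in both libraries, the leading ones of the others, and the 3 highest genes per pathway list with Ntf5 and Sort1, and some genes that this rule took are not reported here. The members, the pathway and marker lists were chosen with earlier results of these data known, and transcripts below the rule are named where a group needs them.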

Additional observations from a re-analysis of the deposited data

How the results depend on the processing

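The count of genes called between the libraries stayed within 1.5 times of 3192 under DESeq2 1.42.0 size factors, library totals, no count minimum, a minimum of 100 and alignment-free counts. With spike-in totals it was 10038, with 5 of the 6 neurotrophin genes called in place of 3. That scale reversed the log2 ratios of Ntf3 (0.18), Ntrk2 (0.17) and Vgf (0.20). The alignment-free counts reversed Ntf3 (0.041) and the ratio of TPM reversed Vgf (0.0082). Bdnf had adjusted p of 0.0647 to 0.145 by the exact binomial test under the other scalings and minimums, and passed with the spike-ins alone. The cause was not tested. The full-length share of Ntrk2 was 34.7% in alignment-free TPM and 41.1% in expected counts, and that of Ntrk3 was 77.6% in expected counts, which are not divided by length. Leaving out 1 library returns the value of the other, so it is no separate check. It gave full-length shares of 31.2 to 33.3% for Ntrk2 and 52.0 to 53.8% for Ntrk3. For Bdnf it gave an exon VI share of 41.3 to 50.9%. With posterior mean TPM that share was 40.7%. Keeping only complete coding sequences for Ntrk2 and Ntrk3, or only protein-coding transcripts for Bdnf, could not change the shares. All transcripts counted in them already met these conditions. With a minimum of 100 counts Ntf3 was not tested. The test between libraries needs both, so leaving out a replicate was not possible there. No paired analysis was possible because there is 1 group. Depth limits Ntf3 and Ngfr, with 77 to 149 counts, and the transcripts of Bdnf. Alleles of CAST against the mm10 reference were not examined.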
